A study of Mus musculus with 18 samples.

Results

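The 123 genes described here are the long non-coding RNA (lncRNA) genes with a clear level in cultured OT-I CD8+ T cells. They are the autosomal genes that GENCODE annotates on mouse GRCm38 as lincRNA (79 genes, lying between protein-coding genes) or antisense (44 genes, on the strand opposite another gene). Each had a mean level of at least 2 TPM (a read share per transcript length, scaled to the same total in every library) in at least 1 of 4 groups, and a mean of at least 50 estimated reads over 18 libraries. They were chosen from 4717 autosomal lincRNA and antisense genes in the tables, 2218 of which had any count. Because measured levels chose the genes, the levels are given as a description. Of the 123 genes, 92 reached 2 TPM in every group and 31 did so in some groups only, so that part of the difference between groups was built in by the choice for those 31.

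The study asked how ibrutinib, a covalent inhibitor of the kinase BTK and of related kinases, acts on T cells that have been exhausted in vitro. CD8+ T cells were purified from wild type OT-I mice, whose transgenic T cell receptor recognizes the OVA(257-264) peptide. Repeat peptide stimulated cells received the peptide daily with IL-15 and IL-7 and kept it in culture, and single peptide stimulated cells received it once and were then washed and rested. From day 5 both were cultured with 1 µM ibrutinib or with DMSO, the solvent, until day 8, when poly(A) RNA was sequenced. There were 4 libraries of repeat peptide cells with DMSO, 5 with ibrutinib, 5 of single peptide cells with DMSO and 4 with ibrutinib. The label entry for genotype holds names that recur over the groups, which are read here as names of experiments and lettered A to F. Experiments A to D gave 1 library to every group, E only a repeat peptide library with ibrutinib, and F only a single peptide library with DMSO. Several of these names mention a BTK knockout, whereas the strain entry of every library reads wild type. The labels do not say whether libraries of a group came from separate animals, so p-values measure the spread between these cultures.

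Totals per library ranged from 23445922 to 51995372 estimated reads, and the 123 genes took between 0.262% and 0.586% of them. The labelled cell type was checked by its markers. Cd8a averaged between 438 and 571 TPM in the 4 groups, while Cd4, Ms4a1, Cd79a, Csf1r and Adgre1 were at or under 0.046 TPM. Cd8b1 was at 321 and 344 TPM in repeat and 819 and 944 TPM in single peptide groups, and Cd3g at 1060 and 878 against 576 and 601 TPM. Cd3e, Cd3d and Trac lay between 348 and 758 TPM. Low levels of a few markers of other cells moved with the stimulation: mean Foxp3 was between 0.0375 and 0.4 TPM in repeat and between 1.79 and 2.79 TPM in single peptide groups, and mean Klrb1c was between 6.03 and 9.01 TPM in repeat and between 1.48 and 1.69 TPM in single peptide groups. The B cell gene Cd79b was at 1.73 and 2.49 TPM in repeat and 4.4 and 4.75 TPM in single peptide groups, and the myeloid gene Lyz2 at 0.01 and 0.44 against 1.18 and 1.12 TPM. Ncr1, Itgam, Flt3 and Hba-a1 stayed at or under 0.432 TPM, and Hbb-bs at 0. Their part in the results was not tested. In bulk libraries, fewer cells that contain an RNA and less of it per cell cannot be told apart.

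LncRNAs are transcribed and often spliced and polyadenylated like messenger RNAs, but are not known to depend on a protein product. Some act in the nucleus as scaffolds, some are mainly carriers of small nucleolar RNAs or microRNAs that are cut out of them, and for many no function is known. Their expression is often restricted to a cell type or state, and in T cells many change upon activation and differentiation.

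Most of the 123 genes were expressed at low levels. Mean TPM over the 4 groups was 100 or more in 7 genes, from 10 to under 100 in 40, and under 10 in 76. The median was 6.53 TPM, against 21.8 TPM for the 9589 autosomal protein-coding genes that met the same thresholds. The genes were also shorter, with a median of 2289 exonic bases in 3 exon blocks against 4538 bases in 10 blocks, and 31 consisted of a single block. The highest of the 4 group means fell in a single peptide group for most genes: with DMSO for 46 genes and with ibrutinib for 47, against 18 and 12 in the repeat peptide groups. This tally draws on the levels that chose the genes and was not made for other genes, so it is only a description. Just inside the level threshold were 1700096K18Rik at 2.03 and 4930513N10Rik at 2.06 TPM in their highest group, and just outside were D130017N08Rik at 1.94 and Gm10501 at 1.98 TPM. For the mean estimated reads, 4833445I07Rik at 50.6 was just inside and Sp3os at 48.8 just outside.

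The highest levels need care, because 12 of the 123 genes have an effective length under 300 bases, over which few reads make a high TPM. Gm10076, the highest with group means between 2076 and 2833 TPM, has an effective length of 54.9 bases and shares 82.2% of its 31-base words with the ribosomal protein gene Rpl41, which makes its reads uncertain. Gm42418 came next with a mean of 795 TPM, and 99.5% of its exonic bases lie opposite another annotated gene. It also shares sequence with Gm26917, another of the 123 genes, 617 bases away. Its libraries ranged from 372.5 TPM to 2722 TPM, so its reads are uncertain too. AW112010, an immune lncRNA known to be induced by inflammatory signals, followed with a mean of 499.6 TPM over the groups. Epb41l4aos, Neat1, Snhg6 and Lockd averaged 179, 124, 115 and 113 TPM, and Gm19585, 2900097C17Rik and Snhg20 averaged 96.4, 93.2 and 84.9 TPM. 2900097C17Rik, the mouse counterpart of NORAD, which binds Pumilio proteins, shares sequence with Gm7292, also among the 123 genes.

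Most changes between the stimulations with DMSO were falls. To compare repeat with single peptide stimulation, all 12255 genes tested were fitted together, and a gene was called when its adjusted p-value by edgeR's quasi-likelihood test was under 0.05, its mean normalized count at least 50 and its log2 fold change beyond 0.2. Normalized counts are estimated reads scaled to a common library size. In repeat peptide cells 67 of the 123 lncRNA genes were called lower and 12 higher, 79 in all. Among all genes tested, 47.0% were called, 22.8% higher and 24.2% lower. The median log2 fold change of the 123 genes was -0.74 with quartiles at -1.47 and -0.15, while the median of the 9589 protein-coding genes was -0.01 with 2596 called higher and 2696 lower. 

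**Figure D1:**
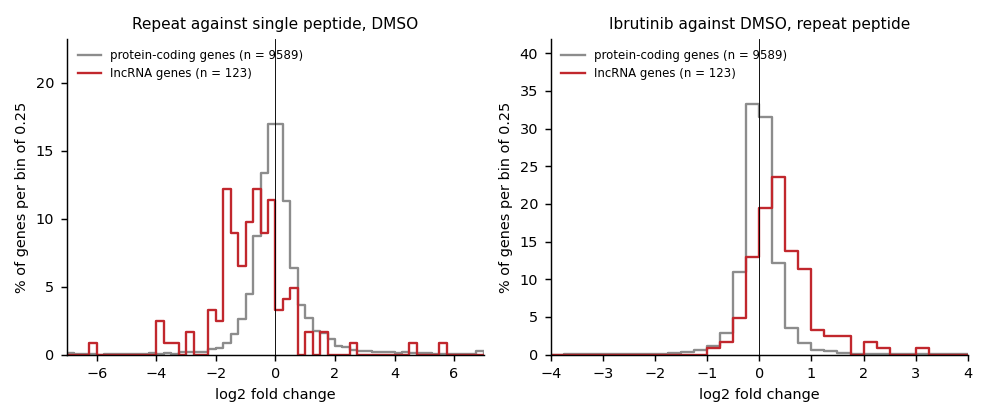
Distribution of log2 fold changes (x axis, in steps of 0.25) for the 123 lncRNA genes and the 9589 protein-coding genes over the same thresholds, as a percentage of each set (y axis), for repeat against single peptide cells with DMSO (left) and ibrutinib against DMSO in repeat peptide cells (right). The lncRNA genes have a median of -0.74 against -0.01 on the left, and of 0.35 against 0.00 on the right.

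The leftward position was seen in each subset looked at. The 92 genes that reached 2 TPM in every group had 8 called higher and 47 lower (median -0.64). The 31 that did so in some groups only had 4 and 20 (median -1.01), part of which the choice of genes built in. Antisense genes had 2 called higher and 28 lower (median -0.81), and lincRNA genes 10 and 39 (median -0.64). The 62 genes with a mean TPM at or above the median of the set had 8 higher and 32 lower (median -0.68), and the 61 below it 4 and 35 (median -0.84). Protein-coding genes whose mean TPM lay between the quartiles of the lncRNA levels, 3175 genes, had 921 higher and 905 lower (median -0.02). Another 81 lncRNA genes of other GENCODE types over the same thresholds had 11 higher and 36 lower (median -0.54). All libraries of repeat peptide cells with DMSO were below all of single peptide cells for 46 of the 67 genes called lower, and above for 9 of the 12 called higher. In experiments A to D the sign was the same in each for 72 of the 79 called genes. These counts were not made over all genes tested, and they follow in part from the call. The libraries were made with a directional kit and so carry strand, but whether the counting used it is not given in the sources used here. Of the 70 genes that share under 10% of their exonic bases or words with any other gene, 9 were called higher and 36 lower (median -0.76).

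The largest fall was that of Gm30948, a lincRNA gene at chr12:115262684-115287908 on the plus strand. Its normalized counts in repeat peptide cells with DMSO were 10.5, 25.7, 3.00 and 12.8 in experiments A to D, and in single peptide cells 1542, 1393, 356.9 and 517 with 978 in F. Every repeat library was far below every single library. The gene reached a mean of 2 TPM in the single peptide groups only, so part of this gap was built in by the choice of genes. The log2 fold change was -6.24 (SE 0.717, adjusted p = 1.29e-06). The gene spans the immunoglobulin heavy chain pseudogene Ighv1-57, and 4 variable segments of that locus within 20 kb had 0 counts in all libraries.

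4933440M02Rik, a lincRNA gene on the minus strand at chr7:125284025-125349788, fell by 3.79 on the log2 scale (SE 0.31, adjusted p = 2.01e-08). Its normalized counts with DMSO were 96.5, 142, 65.1 and 98.2 in repeat peptide cells of experiments A to D, and 1813, 1534, 1002 and 1435 with 1168 in F in single peptide cells. The groups did not overlap, and their means were 100.5 ± 31.7 (SD, n = 4) and 1390 ± 317 (SD, n = 5). The gene reached a mean of 2 TPM in every group but repeat peptide cells with DMSO, so the choice of genes built in part of the difference. It is shown with its promoter because its response to ibrutinib differed by test between the stimulations. The sequence is from RefSeq on GRCm38.p6, chr7:125349737-125350036 on the minus strand, 250 bases before to 50 after the start, with each TATAAA in capitals, 237 and 154 bases before the start.
4933440M02Rik: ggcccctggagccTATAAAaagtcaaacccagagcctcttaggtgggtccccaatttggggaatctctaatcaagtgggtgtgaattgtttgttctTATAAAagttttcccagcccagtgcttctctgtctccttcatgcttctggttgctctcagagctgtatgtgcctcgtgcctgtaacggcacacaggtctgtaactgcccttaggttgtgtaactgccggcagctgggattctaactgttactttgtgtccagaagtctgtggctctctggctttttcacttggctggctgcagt
Both strands were searched for TATAAA, and for TGANTCA (AP-1), a pair of GAAA parted by any 2 bases (interferon response) and CACGTG (E-box), none of which overlap each other here. Of 32851 RefSeq promoters of this length, 13.6% hold a TATAAA, 7.81% a TGANTCA, 3.44% such a pair of GAAA and 7.15% a CACGTG. A match describes letters in a window and is neither a binding site nor a cause. Promoters were found for 70 of the 123 genes (56.9%), too few for a count of motifs over the set, so that check is void.

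Other large falls were of 2 kinds, genes almost silent in repeat peptide cells and genes lowered from a moderate level. A930002I21Rik, next to the potassium channel gene Kcna2, had 45.4, 34.6, 11.2 and 13.9 normalized counts in repeat peptide cells with DMSO in experiments A to D and 503, 282, 345 and 459 with 357 in F in single peptide cells. No libraries overlapped, and the log2 fold change was -3.92 (SE 0.403, adjusted p = 3.61e-07). Gm15675, beside Cd55, which encodes a membrane inhibitor of complement, had means of 21.1 ± 9.41 (SD, n = 4) and 324 ± 220 (SD, n = 5) normalized counts, a log2 fold change of -3.93 (SE 0.591, adjusted p = 2.43e-05). Its single peptide libraries were themselves spread from 95.6 in experiment C to 657 in experiment B, all above the highest repeat library at 34.6. D930028M14Rik, Gm26583 and Gm26551 changed by -3.56, -3.42 and -2.90 (adjusted p = 8.07e-05, 1.4e-05 and 0.000355), all of them among the genes that reached 2 TPM in some groups only. So were Gm30948, 4933440M02Rik, A930002I21Rik and Gm15675. Gm26740, an antisense gene that reached 2 TPM in every group, had 204, 153, 106 and 48.0 normalized counts in repeat and 1082, 1230, 487 and 607 with 1098 in F in single peptide cells. Its groups did not overlap either, and its log2 fold change was -2.82 (SE 0.397, adjusted p = 1.24e-05).

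**Figure D2:**
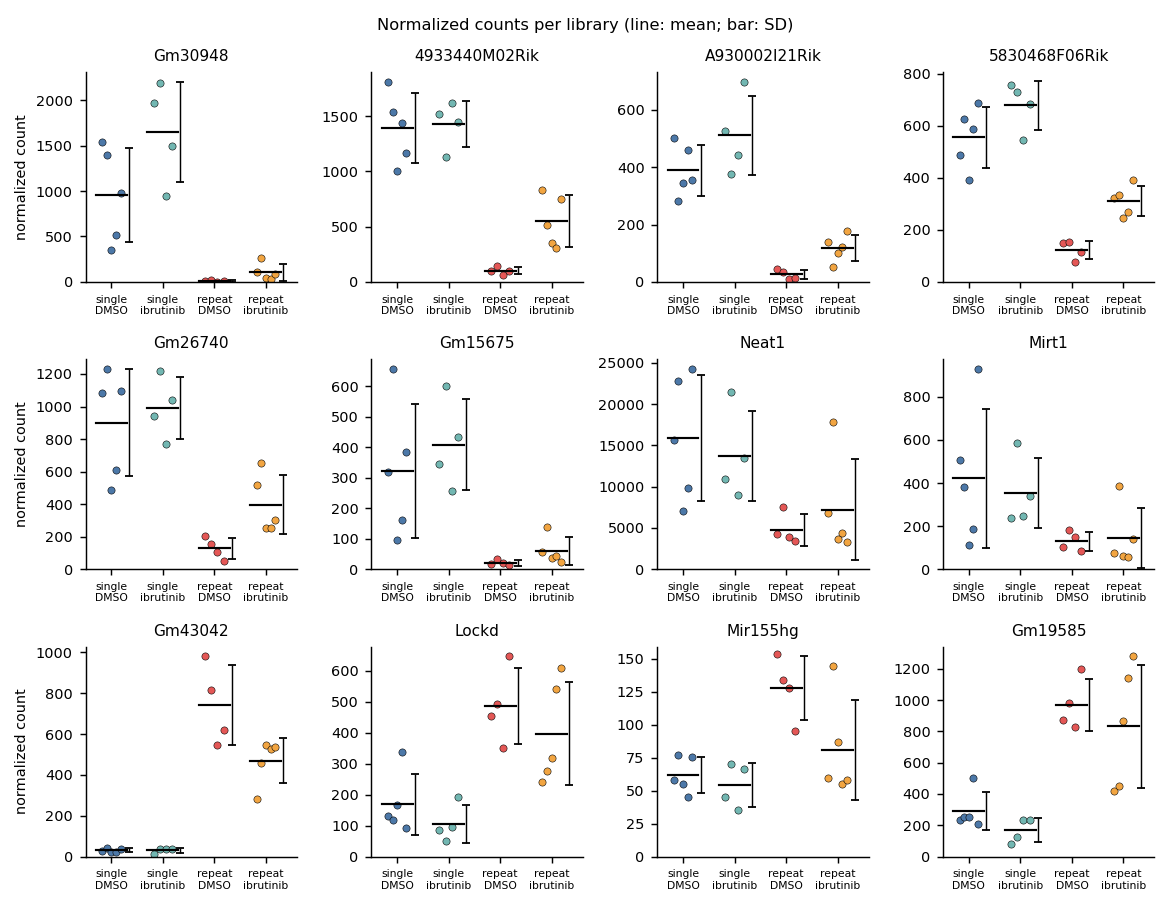
Normalized counts (y axis, linear, from 0) of 12 lncRNA genes in the 18 libraries by group (x axis), with each point a library, the line the mean and the bar the SD (n = 4 or 5). Gm30948 is nearly absent in repeat peptide cells with DMSO (mean 13.0) and Gm43042 nearly absent in both single peptide groups (means 30.3 and 30.5).

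Only 12 genes were called higher in repeat peptide cells, and 2 of these were nearly restricted to them. Gm43042, a lincRNA gene at chr5:59569702-59574242, had 981, 815, 547 and 620 normalized counts in repeat peptide cells with DMSO in experiments A to D, against 25.1, 43.3, 24.2 and 20.4 with 38.3 in F in single peptide cells. The lowest repeat library was far above the highest single library, and the log2 fold change was 4.61 (SE 0.296, adjusted p = 1.26e-09). It shares 77.5% of its words with other genes, which leaves the assignment of its reads uncertain. Gm30214, an antisense gene on the minus strand at chr14:53032417-53039466, overlaps the T cell receptor alpha variable segment Trav13d-3. Its normalized counts were 142, 152, 103 and 157 in repeat peptide cells with DMSO, and 0, 1.08, 0 and 7.41 with 5.11 in F in single peptide cells. The log2 fold change of 5.54 (SE 0.673, adjusted p = 2.46e-06) rests on a handful of reads in the single peptide libraries. Without any 1 of the 4 repeat libraries with DMSO the fold change stayed between 5.49 and 5.66, but the mean over all libraries fell under 50 and the call was lost. The nearby variable segments stood at or under 2.78 normalized counts in every library, and Gm30214 shares 89.1% of its words with Gm43650, which had at most 14.4. Both genes reached 2 TPM in some groups only.

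The promoter of Gm30214 is shown as that of the gene with the largest rise, read from RefSeq on GRCm38.p6, chr14:53039417-53039716 on the minus strand. In capitals are a pair of GAAA read on the opposite strand, a TGANTCA and a TATAAA, 239, 167 and 30 bases before the start.
Gm30214: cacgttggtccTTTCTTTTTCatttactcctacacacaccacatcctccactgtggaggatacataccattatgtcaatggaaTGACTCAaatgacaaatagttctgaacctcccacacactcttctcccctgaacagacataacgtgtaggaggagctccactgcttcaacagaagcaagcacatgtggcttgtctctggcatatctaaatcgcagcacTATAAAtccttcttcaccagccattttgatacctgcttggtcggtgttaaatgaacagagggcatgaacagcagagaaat

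Other genes called higher rose from a substantial level. Lockd, a lncRNA gene just downstream of the cell cycle inhibitor gene Cdkn1b, had 455, 494, 350 and 649 normalized counts in repeat and 131, 118, 167 and 339 with 92.0 in F in single peptide cells. Its log2 fold change was 1.52 (SE 0.39, adjusted p = 0.00314), and the highest single library, from experiment D, lay just below the lowest repeat library. Gm19585 at chr17:51986415-52163976 averaged 970 ± 166 (SD, n = 4) normalized counts against 290 ± 120 (SD, n = 5), without overlap (log2 fold change 1.74, SE 0.353, adjusted p = 0.000455). The rise of AW112010 was 0.51 (SE 0.194, adjusted p = 0.0328). Leaving out 1 library lost the call of AW112010 for 5 of the 9 libraries, namely experiments B and D of the repeat and B, C and F of the single peptide cells, at log2 fold changes between 0.43 and 0.50. 2310001H17Rik, Brip1os and Dubr rose by 1.07, 0.66 and 0.59 (adjusted p = 0.00236 for 2310001H17Rik and 0.00366 for Dubr).

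Small nucleolar RNA host genes fell or did not pass the test. These genes carry in their introns the small RNAs that guide chemical modification of ribosomal RNA, and their spliced transcripts are typically cleared by nonsense-mediated decay. Of 14 tested hosts, of any lncRNA type, 0 were called higher by edgeR's test, at an unadjusted p-value under 0.05 or by DESeq2, and 7 lower: Snhg12, Snhg15, Snhg17, Snhg20, Gas5, Epb41l4aos and Zfas1. The median of the list was -0.60, against -0.01 over protein-coding genes. Of all genes tested, 22.8% were called higher and 24.2% lower, and the list was not tested against these shares. Epb41l4aos averaged 197 ± 25.9 (SD, n = 4) normalized counts in repeat and 611.5 ± 110.1 (SD, n = 5) in single peptide cells with DMSO. Its repeat libraries reached at most 213 and its single libraries were at least 506, giving a log2 fold change of -1.63 (SE 0.228, adjusted p = 1.11e-05). Snhg20 changed by -1.29 (SE 0.253, adjusted p = 0.000326) and Snhg12 by -0.70, whereas Snhg6, at -0.08, did not pass the test. Among 14 tested factors of nonsense-mediated decay, beside the same shares of all genes, 3 were higher and 6 lower, the latter Upf2, Upf3a, Smg1, Smg5, Smg9 and Casc3.

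Of 7 listed microRNA host genes that were tested, Mir155hg and Mir22hg were called higher and 0 lower (median 0.33), with 1 lower at an unadjusted p-value under 0.05 and 0 by DESeq2. That 1 was Mir142hg, at -1.40 (SE 0.654, adjusted p = 0.0795). Over all genes tested, 22.8% were called higher and 24.2% lower, and the list was not tested against these shares. Mir155hg is the precursor of miR-155, which is induced by T cell receptor signals. Its normalized counts in experiments A to D were 154, 134.3, 128 and 95.0 in repeat and 58.1, 76.8, 54.8 and 45.4 with 75.4 in F in single peptide cells with DMSO. All repeat libraries were higher, and the log2 fold change was 1.04 (SE 0.304, adjusted p = 0.00758). Mir22hg, not among the 123 genes, rose by 2.43 (SE 0.367, adjusted p = 2.52e-05) from 0.686 to 3.90 TPM. Mir17hg, the precursor of the miR-17-92 cluster, had between 133 and 526 normalized counts in repeat and between 304 and 709 in single peptide cells, with a difference of -0.46 (SE 0.36, adjusted p = 0.294). These RNAs are precursors read from their polyadenylated forms, and the mature microRNAs were not measured. Of 13 tested genes of microRNA processing, Drosha and Prkra were higher and Ago3, Tnrc6a, Tnrc6b and Tnrc6c lower, again beside 22.8% and 24.2% of all genes tested.

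The mature microRNAs within these hosts are given from RefSeq on GRCm38.p6, since they are the known products of the genes; capitals mark the seed, bases 2 to 8, which directs target choice. Mir155hg carries miR-155 at chr16:84714143-84714165, plus strand.
mmu-miR-155-5p: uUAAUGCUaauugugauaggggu
Mir17hg holds, from chr14:115043684 to chr14:115044496 on the plus strand, microRNAs of 4 seeds. miR-17 and miR-20a share AAAGUGC, miR-19a and miR-19b share GUGCAAA, and miR-18a and miR-92a have seeds of their own.
mmu-miR-17-5p: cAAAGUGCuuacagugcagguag
mmu-miR-20a-5p: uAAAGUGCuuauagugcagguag
mmu-miR-18a-5p: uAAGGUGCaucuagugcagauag
mmu-miR-19a-3p: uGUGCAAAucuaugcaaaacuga
mmu-miR-19b-3p: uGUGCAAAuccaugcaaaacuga
mmu-miR-92a-3p: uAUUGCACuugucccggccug
The gene 6720427I07Rik, whose transcripts span 3 let-7 microRNAs on chr13, changed by -0.53 (SE 0.294, adjusted p = 0.135), and its microRNAs share the seed GAGGUAG.
mmu-let-7a-5p: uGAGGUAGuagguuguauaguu
mmu-let-7f-5p: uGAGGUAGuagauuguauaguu
mmu-let-7d-5p: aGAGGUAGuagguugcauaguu
Of the remaining hosts by position, 4833445I07Rik, which holds miR-191 and miR-425, was higher by 0.64 (adjusted p = 0.0337). Lower were 2900076A07Rik, which holds miR-1839, at -1.28 (adjusted p = 0.00668), and Snhg20, which holds miR-6516 and is described above among the small nucleolar RNA hosts, at -1.29.

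Of 19 tested lncRNA genes with a described role, Lockd and Dubr were called higher and Neat1, Tug1, Airn, Mirt1 and Ftx lower (median -0.87), beside 22.8% called higher and 24.2% lower among all genes tested. The list was matched by gene name. Its entry Norad therefore missed 2900097C17Rik, which is not among the 19 and was called lower at -0.87. Neat1, the scaffold RNA of the nuclear bodies called paraspeckles, had 4251, 7587, 3857 and 3387 normalized counts in repeat peptide cells with DMSO and 15660, 22760, 7034 and 9835 with 24290 in F in single peptide cells. Within every experiment from A to D the repeat library was lower, but the repeat library of experiment B was above the single library of experiment C. Its log2 fold change was -1.74 (SE 0.484, adjusted p = 0.0055). The neighbouring Malat1, an abundant nuclear RNA, changed by -0.92 without passing the test (SE 0.42, adjusted p = 0.0728), but was called lower at -1.14 without the single peptide library of experiment C and at -1.07 without that of experiment D. Tug1 and Airn, an imprinted RNA antisense to Igf2r, changed by -0.74 and -1.21 (SE 0.146 and 0.316, adjusted p = 0.000351 and 0.00345). Mirt1 changed by -1.69 (SE 0.601, adjusted p = 0.0237). With the experiment as a block, the call of Mirt1 was lost (-1.09, adjusted p = 0.0541), as it was without the repeat library of experiment A (-1.60) or D (-1.54) or the single library of experiment F (-1.18). Pvt1, which lies beside Myc, was at 0.03.

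The genes of proteins that bind or turn over such RNAs were looked at beside the 22.8% called higher and 24.2% called lower among all genes tested, and no list was tested against these shares. Of 15 paraspeckle and nuclear retention proteins, Sfpq, Pspc1 and Rbm14 were called higher and 0 lower by edgeR, by DESeq2 or at an unadjusted p-value under 0.05 (median 0.11), at log2 fold changes of 0.46, 0.54 and 0.54. Of 19 genes of the nuclear exosome, which degrades non-coding RNA, 3 were higher (Exosc3, Exosc8 and Mphosph6) and 4 lower (Zfc3h1, Pabpn1, Tent4b and Zcchc7, the last at -1.02), with a median of -0.09. Of 20 genes of the Integrator complex and early termination, 6 Integrator subunits were higher, and Zc3h18 and Wdr82 lower (median 0.13). The largest change among the called genes of this last list was that of Wdr82, at -0.91 (SE 0.102, adjusted p = 9.03e-07), a subunit of a complex that restrains transcription beyond gene ends and upstream of promoters.

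Ibrutinib raised some lncRNA genes in repeat peptide cells. Against DMSO, 15 of the 123 genes were called, all higher (12.2%), while 5.92% of all genes tested were called, 4.01% higher and 1.92% lower. The median log2 fold change of the 123 genes was 0.35, against 0.00 over the 9589 protein-coding genes, of which 440 were called higher and 226 lower. This median of the 123 genes depended most on experiment B: it was 0.18 without its ibrutinib library and 0.51 without its DMSO library. At an unadjusted p-value under 0.05 there were 31 genes higher and 3 lower, beside 2647 of all 12255 genes tested in either direction. DESeq2 called 18 higher and 0 lower. All 15 had the same sign in experiments A to D, and for 9 of them every ibrutinib library was above every DMSO library. Neither count was made over all genes tested, and both follow in part from the call. The number called depended on the libraries: it was 5 without the DMSO library of experiment C, 6 without that of D and 9 without the ibrutinib library of E. Blocking on experiment raised it to 24, with 23 higher and 1 lower, and 14 of the 15 were among them. Of all genes called, 61.3% were higher in the blocked fit and 62.0% by DESeq2. The share of all genes that these fits called, or that the fits without 1 library called, was not worked out. So 24, 18 and the counts without 1 library cannot be set against 5.92%.

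For each responder the fold change between the stimulations is given beside that for ibrutinib, and the comparisons are not independent because they share the 4 repeat peptide libraries with DMSO. 4933440M02Rik had 830, 516, 355 and 310 normalized counts with ibrutinib in experiments A to D and 749.8 in E, all above the highest DMSO value of 142 and all below the lowest single peptide value of 1002. Its log2 fold change was 2.46 (SE 0.295, adjusted p = 6.67e-05), beside -3.79 for repeat against single peptide with DMSO. A930002I21Rik had 141, 52.3, 99.6 and 120.4 with 176 in E, again without overlap with either DMSO group (log2 fold change 2.19, SE 0.388, adjusted p = 0.00199, beside -3.92). 5830468F06Rik, antisense within Kbtbd11, had 321, 336, 245 and 267 with 392 in E, all above the DMSO libraries, which reached 152 (1.36, SE 0.212, adjusted p = 0.000758, beside -2.19). These 3 genes stayed called without any single library.

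Gm30948 rose from between 3.00 and 25.7 to between 34.01 and 266 normalized counts, without overlap, a log2 fold change of 3.06 (SE 0.696, adjusted p = 0.0121). It remained well below the single peptide cells, and lost the call without the DMSO library of experiment C (2.66). Gm26740 had 520, 653, 253 and 252.5 with 301 in E, above all DMSO libraries (1.63, SE 0.382, adjusted p = 0.0141), a call lost without the DMSO library of experiment C (1.55) or D (1.37). 2810001G20Rik changed by 1.37 (SE 0.334, adjusted p = 0.0178), lost without the DMSO library of C (1.33) or D (1.36) or the ibrutinib library of E (1.13). D930028M14Rik, at 2.17 (SE 0.595, adjusted p = 0.0351), was lost with the experiment as a block (1.77, adjusted p = 0.0506) and without the DMSO library of B, C or D or the ibrutinib library of B or E (1.70 to 2.28). Gm26583, at 1.65 (SE 0.475, adjusted p = 0.0438), was lost without the DMSO library of A, C or D or the ibrutinib library of A, B or E (1.17 to 1.76).

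The other 7 called genes, listed after their values were seen, changed less: Zbtb11os1 by 1.12, BC043934 by 1.01, 1810034E14Rik by 0.99, Gm11131 by 0.92, Gm17767 by 0.90, Gm26517 by 0.80 and Tmem250-ps by 0.54, with adjusted p-values from 0.012 to 0.0464. Gm17767 differed from the rest in its other comparison. Its normalized counts were 2973, 2279, 2682 and 1881 with DMSO and 4432, 4880, 4082 and 3850 with 5629 in E with ibrutinib, without overlap, while repeat and single peptide cells with DMSO were at 2454 ± 476.4 (SD, n = 4) and 2470 ± 702 (SD, n = 5). Among the other genes of the lists, Drosha was lowered by ibrutinib in repeat peptide cells (-0.44, SE 0.112, adjusted p = 0.0224) and Wdr82 raised (0.61, SE 0.101, adjusted p = 0.00123). In the lists of small nucleolar RNA hosts, microRNA hosts, lncRNAs with a described role, paraspeckle proteins, exosome genes and decay factors 0 genes were called by edgeR's test or by DESeq2. At an unadjusted p-value under 0.05 by edgeR they held 1, 1, 3, 2, 0 and 2 genes. Mir155hg had 59.4, 144.5, 87.3 and 55.2 with 58.3 in E with ibrutinib, against 95.0 to 154 with DMSO (-0.66, SE 0.301, adjusted p = 0.208).

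**Figure D3:**
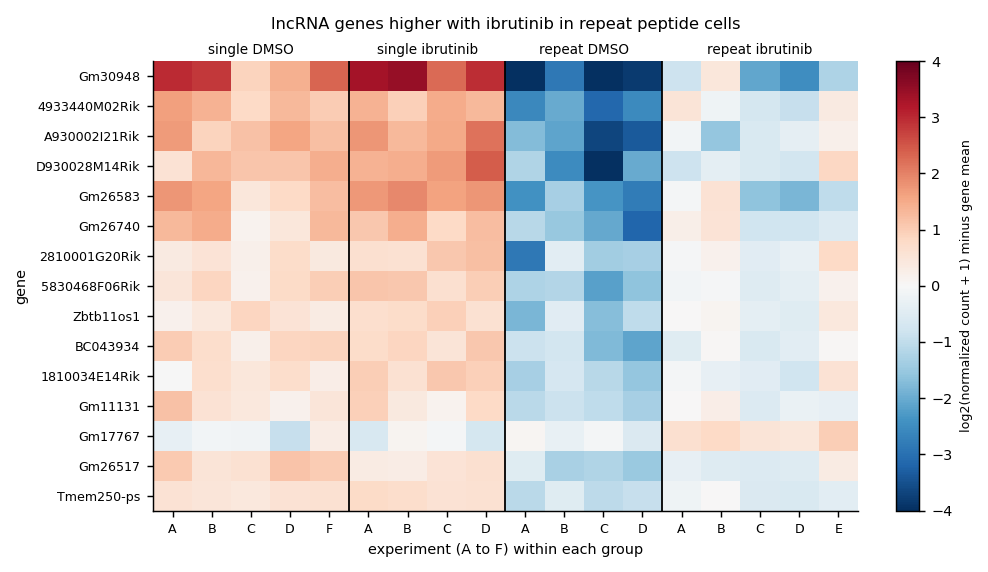
The 15 genes called higher with ibrutinib in repeat peptide cells (rows of the plot) in the 18 libraries by group and experiment (columns), as log2(normalized count + 1) minus the mean of the gene, with colours ending at -4 and 4. In repeat peptide cells 4933440M02Rik goes from a mean of 100.5 normalized counts with DMSO to 552 with ibrutinib, against 1390 in single peptide cells with DMSO.

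In single peptide cells the fit without a block called 1 of the 123 genes with ibrutinib (0.813%), against 3.04% of all genes tested. The median of the 123 genes was 0.02. The called gene was AU020206, which was lower. Its normalized counts were 402, 582, 277 and 324 with 437 in F with DMSO, and 217, 199.5, 167 and 204 with ibrutinib. The groups did not overlap, with a log2 fold change of -1.04 (SE 0.272, adjusted p = 0.043). The call was kept without the DMSO library of experiment C and lost without any 1 of the other 8, at -0.88 to -1.11. It was also lost with an offset for effective length (-0.90, adjusted p = 0.0885). At an unadjusted p-value under 0.05 there were 15 genes, beside 1658 of all 12255 genes tested. A block for experiment gave 11 calls, 4 higher and 7 lower, and the share of all genes called in that fit was not worked out.

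The difference between the ibrutinib effects in repeat and in single peptide cells was tested as an interaction. Of the 123 genes 1 was called, against 1.26% of all genes tested, although the median of the interaction was 0.35 against 0.02 over all genes, and 19 had an unadjusted p-value under 0.05. The called gene was 4933440M02Rik, with an interaction of 2.42 (SE 0.391, adjusted p = 0.0027). In single peptide cells its normalized counts were 1519, 1130, 1617 and 1445 with ibrutinib, within the range with DMSO (log2 fold change 0.04, SE 0.26). A block for experiment gave 9 calls, all higher, and DESeq2 gave 6. The share of all genes called in those fits was not worked out, so these counts cannot be set against 1.26%. In the fit without a block the number was 3 without the repeat DMSO library of experiment A. It was 2 without the repeat ibrutinib library of B or C or the single DMSO library of C or D. The share of all genes called without these libraries was not worked out either. Of the other 14 genes that rose with ibrutinib in repeat peptide cells, the fit without a block showed a difference from the effect in single peptide cells for 0, the fit with the block for 6 and DESeq2 for 4. The 6 were 5830468F06Rik, A930002I21Rik, Gm26740, Gm17767, Gm26517 and Gm11131, with interactions from 0.76 to 1.60 and adjusted p-values from 0.0073 to 0.0463 in the blocked fit. Outside these responders the blocked fit called AU020206 (1.36, adjusted p = 0.00309) and Epb41l4aos (0.76, adjusted p = 0.0175). DESeq2 also called AU020206 (1.42, adjusted p = 0.0109).

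**Figure D4:**
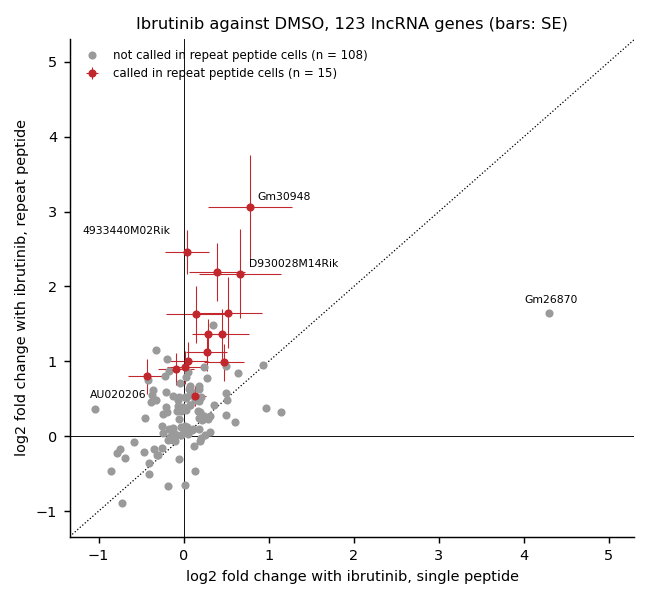
Log2 fold change with ibrutinib in repeat (y axis) against single peptide cells (x axis) for the 123 lncRNA genes, with a dotted line where both are equal. SE bars are drawn only for the genes called with ibrutinib in repeat peptide cells. The comparisons use separate libraries; 4933440M02Rik, at 2.46 and 0.04, is the gene called in the interaction by the fit without a block.

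With ibrutinib present in both, repeat and single peptide cells still differed in many lncRNA genes. Called were 65, 14 higher and 51 lower, beside 38.4% of all genes tested, 18.7% higher and 19.6% lower. The median was -0.56, against -0.03 over protein-coding genes, 2105 of which were called higher and 2215 lower. The sign was the same in experiments A to D for 64 of the 65, a count not made over all genes tested. Gm30948 was at -3.96, A930002I21Rik at -2.12 and 4933440M02Rik at -1.37 (adjusted p = 1.58e-05, 6.92e-05 and 0.000392). Gm30214 and Gm43042 were at 5.38 and 3.94 (adjusted p = 1.83e-05 and 2.86e-08). The call of Gm30214 was lost without the repeat library of experiment D (5.20), when its mean fell under 50 normalized counts. Gm43042 had 280, 461, 547 and 525 with 536 in E in repeat cells and 14.2, 37.5, 35.2 and 34.9 in single peptide cells, with no overlap. Gm19585 and Lockd were at 2.31 and 1.92 (adjusted p = 9.17e-05 and 0.00116), and Mir155hg at 0.57 did not pass the test (adjusted p = 0.148). Of the small nucleolar RNA hosts 0 were higher by edgeR's test, by DESeq2 or at an unadjusted p-value under 0.05, and 5 lower, and of the microRNA hosts Mir22hg and Dleu2 were higher.

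The remaining lists with ibrutinib in both read as follows, beside 18.7% called higher and 19.6% lower among all genes tested. Of the lncRNA genes with a described role 2 were higher (Lockd and Dubr) and 2 lower (Tug1 and Ftx), and of the paraspeckle proteins the same 3 were higher as with DMSO. Nuclear exosome genes had 2 higher and 5 lower, decay factors 2 and 6, microRNA processing genes 1 and 5, and Integrator and termination genes 2 and 1. In the comparison of ibrutinib with DMSO in single peptide cells, and in the interaction, 0 genes of any list were called by edgeR's test without a block. DESeq2 called 1 paraspeckle gene and 1 exosome gene lower in single peptide cells and 0 in the interaction. At an unadjusted p-value under 0.05 by edgeR, each list held between 0 and 4 genes in single peptide cells and between 0 and 3 in the interaction.

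LncRNA genes often lie beside or over protein-coding genes, so each was set beside its nearest protein-coding gene that was tested. Within 50 kb such a neighbour was found for 105 of the 123 genes: 38 overlapped it on the opposite strand, 4 on the same strand, 16 were divergent (starts within 2 kb, pointing apart) and 47 lay otherwise. The neighbours themselves were more often lower than higher in repeat peptide cells with DMSO. Of 104 distinct neighbours 15 were called higher and 46 lower, with a median of -0.24. In 40 of the 105 pairs both genes were called, 34 in the same direction (32 both lower, 2 both higher) and 6 in opposite directions. Among 8268 protein-coding genes over the same thresholds and their own neighbours, both were called in 2227 pairs, with 1336 in the same direction (60.0%) and 891 opposite. Since 67 of the 79 called lncRNA genes fell, the shares cannot be compared directly. Across the 105 pairs the fold changes had a Pearson r of 0.33 (Spearman 0.32), and across the 8268 pairs 0.14 (0.13). Pairs share libraries and, where they overlap, reads.

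By position, all 12 pairs of genes overlapping on opposite strands with both called went the same way, as did both such pairs on the same strand. The divergent pairs had 3 of 5, and the other pairs 17 of 21. Protein-coding pairs were not counted by position, and most of the called lncRNA genes and neighbours fell, so these counts are only a description. Without overlapping pairs there were 20 pairs in the same direction. With ibrutinib in repeat peptide cells both genes were called in 2 of the 105 pairs, each with both higher. Of the 8268 protein-coding pairs both were called in 53, with 31 both higher, 8 both lower and 14 in opposite directions.

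**Figure D5:**
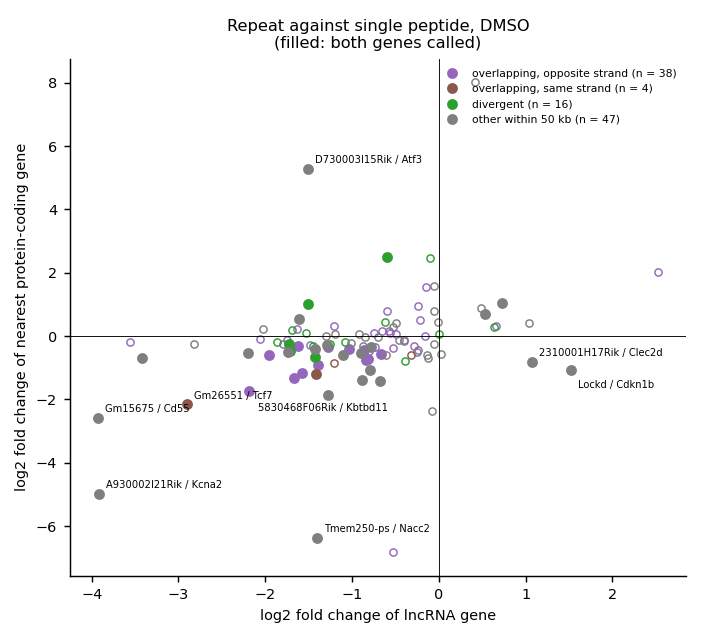
Log2 fold change of repeat against single peptide cells with DMSO for 105 lncRNA genes (x axis) and their nearest protein-coding genes within 50 kb (y axis), by position; filled points have both genes called. Of 40 such pairs 32 lie in the lower left, 2 in the upper right and 6 have opposite signs.

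Among pairs that fell together, A930002I21Rik and Kcna2 had the largest changes. They lie on the same strand of chromosome 3, 2745 bases apart. Kcna2 had 24.4, 0, 1.497 and 0 normalized counts in repeat and 301, 178.5, 143 and 113 with 213 in F in single peptide cells with DMSO, without overlap (log2 fold change -4.98, SE 0.731, adjusted p = 1.95e-05). With ibrutinib Kcna2 had between 15.7 and 48.5 in repeat peptide cells and did not pass the test (2.41, adjusted p = 0.056). Cd55, 1836 bases from Gm15675 on the same strand, changed by -2.58 (SE 0.184, adjusted p = 4.04e-09) and by 0.94 with ibrutinib in repeat cells (adjusted p = 0.00312). The response of Gm15675 to ibrutinib was 1.49 (adjusted p = 0.128).

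Gm26551 overlaps on the same strand Tcf7, which encodes the transcription factor TCF1 of naive, memory and stem-like T cells. Tcf7 had 7120, 4303, 4793 and 3485 normalized counts in repeat peptide cells with DMSO, 13900, 6357, 9371 and 7745 with 9508 in E with ibrutinib, and between 18350 and 25150 in single peptide cells with DMSO. Within each experiment the order of these 3 groups was the same. The changes of Tcf7 were -2.16 (SE 0.214, adjusted p = 2.13e-07) and 0.93 with ibrutinib (SE 0.204, adjusted p = 0.00965). Gm26551, with at most 223 normalized counts in a DMSO library, changed by -2.90 and, with ibrutinib, by 1.03 without passing the test (adjusted p = 0.294). Reads of overlapping genes on the same strand can be shared out by the counting, so Gm26551 is uncertain. Gm43634, inside the calcium channel regulator gene Cracr2a and sharing 98.8% of its words with other genes, is uncertain likewise (-1.41 beside -1.21).

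Kbtbd11 fell with its antisense gene 5830468F06Rik (-1.74, SE 0.184, adjusted p = 4.92e-07) and rose with it under ibrutinib in repeat cells (0.71, SE 0.178, adjusted p = 0.0208). Nacc2, which encodes a transcriptional repressor and lies 13594 bases from Tmem250-ps on the same strand, had 2.33, 38.5, 27.7 and 18.1 normalized counts in repeat and 2017, 2112, 1426 and 2225 with 1493 in F in single peptide cells with DMSO. The change of Nacc2, -6.37 (SE 0.455, adjusted p = 4.17e-09), far exceeded that of Tmem250-ps, at -1.40 (SE 0.139, adjusted p = 2.17e-07). Ibrutinib raised Nacc2 in repeat cells by 3.01 (SE 0.424, adjusted p = 0.000332) to between 78.3 and 246 normalized counts. H2-Q4 and Fsd2, the neighbours of Gm11131 and 2900076A07Rik, changed by -1.33 and -1.85.

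Atf3 and D730003I15Rik moved in opposite directions. Atf3, the gene of a stress-induced transcription factor, had 288.5, 256, 761 and 876 normalized counts in repeat peptide cells with DMSO and 29.6, 2.16, 11.5 and 6.48 with 20.4 in F in single peptide cells (5.29, SE 0.605, adjusted p = 1.19e-06). D730003I15Rik, whose nearest end lies 6415 bases away on the other strand, had 11.6, 64.2, 20.96 and 29.9 in repeat and 82.1, 144, 52.3 and 45.4 with 129 in F, a change of -1.51 (SE 0.454, adjusted p = 0.0092). Within every experiment Atf3 was higher and D730003I15Rik lower in repeat peptide cells. With an offset for effective length the change of D730003I15Rik was -0.93 and its call was lost (adjusted p = 0.0525). Ibrutinib lowered Atf3 in repeat cells by a log2 fold change of -2.07 (SE 0.504, adjusted p = 0.0178), and D730003I15Rik was at 0.85 (adjusted p = 0.283). The promoter of D730003I15Rik is shown because the genes pointing apart here moved in opposite ways. It is from RefSeq on GRCm38.p6, chr1:191224204-191224503 on the plus strand, with a TGANTCA 11 bases before and a CACGTG 29 bases after the start in capitals.
D730003I15Rik: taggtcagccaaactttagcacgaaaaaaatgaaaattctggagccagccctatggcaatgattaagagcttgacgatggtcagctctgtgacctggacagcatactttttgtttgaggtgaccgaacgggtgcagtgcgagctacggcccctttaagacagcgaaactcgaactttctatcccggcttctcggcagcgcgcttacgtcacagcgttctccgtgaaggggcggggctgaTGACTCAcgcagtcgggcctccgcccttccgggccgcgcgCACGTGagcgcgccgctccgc

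Lockd and Cdkn1b, which encodes the cell cycle inhibitor p27, lie 3579 bases apart on the same strand of chromosome 6 and also moved apart. Cdkn1b had 2919, 2975, 2384 and 2548 normalized counts in repeat and 6078, 7170, 4389 and 5321 with 5381 in F in single peptide cells with DMSO, without overlap (-1.07, SE 0.149, adjusted p = 1.18e-05), beside 1.52 for Lockd. With ibrutinib in repeat cells Cdkn1b rose by 0.63 (SE 0.148, adjusted p = 0.0143), and Lockd was at -0.29 (adjusted p = 0.711). Gm26799 starts 91 bases from Rad18, a ubiquitin ligase gene of DNA damage tolerance, and points away from it. Gm26799 changed by -1.51 (SE 0.29, adjusted p = 0.00028) and Rad18 by 1.02 (SE 0.117, adjusted p = 1.22e-06), so that genes with adjoining starts moved in opposite directions. 2310001H17Rik and Clec2d, the gene of an inhibitory ligand of NK cell receptors, were at 1.07 and -0.81 (adjusted p = 0.00236 and 0.0241), the former without a call under an offset for effective length (0.83, adjusted p = 0.0547). The remaining opposite pairs were A430046D13Rik with Myl6b and E230001N04Rik with Fkbp5, the lncRNA gene being the lower member in both.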

How the data were processed

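Per the labels, CD8+ T cells of OT-I mice were cultured in 4 groups, and poly(A) RNA was sequenced in 18 libraries. The authors trimmed the reads and aligned them by STAR within RSEM 1.3.1 to GRCm38 and its Ensembl gene models. The deposited expected counts are read numbers per gene as RSEM estimated them for the authors. The TPM values, scaled by the authors within each library and per effective length, chose the genes and describe levels. The deposited effective lengths, in bases, served only in an alternative and in the check of short genes. The strand setting of the counting is not given in the sources used here.

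Expected counts were rounded to whole numbers. Gene names, types and positions came from GENCODE M21 on GRCm38, in which 45143 of 45706 identifiers matched. In R 4.3.3 with edgeR 4.0.16, the 12255 of 27903 protein-coding and lncRNA genes that passed filterByExpr were scaled by TMM and fitted in all 4 groups together by glmQLFit (robust) and glmQLFTest, with Benjamini-Hochberg adjustment over all genes tested. Standard errors are of log2 fold changes. The test was also run on simulated data. Shared sequence was measured in words of 31 bases. Counting error is small for most of these genes at these depths, and the spread between cultures sets the precision. The fit uses no experiment term. The experiments pair the libraries: deviations from group means correlated between 0.16 and 0.494 in 24 pairs of libraries of the same experiment (median 0.325), and with a median of -0.0765 in 97 other pairs. Libraries of a group differed beyond sampling noise (chi-square over degrees of freedom between 27 and 214), and none was counted as a copy.

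The genes, lists and comparisons were chosen with earlier results of these data known. Named are the 10 genes of highest level, in each comparison the 8 largest called rises and falls with the same sign in experiments A to D (5 with ibrutinib in both and in the interaction), genes of the lists, the 8 same-direction and 4 opposite neighbour pairs with the largest changes, and genes at the thresholds, apart from those stated as named later. A neighbour is the nearest protein-coding gene tested. Alternatives were other scalings, filters, thresholds and groups, a block for experiment, DESeq2 1.42.0, an offset for effective length, each library left out, other neighbour limits and, added after seeing the data, genes with under 10% of shared sequence.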

Additional observations from a re-analysis of the deposited data

Results flagged for a closer look

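The response to ibrutinib of 4933440M02Rik differed between the stimulations, with an interaction of 2.42 on the log2 scale (SE 0.391, adjusted p = 0.0027 by edgeR's quasi-likelihood test), and was called under each of the alternatives that kept the gene.

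Among the 42 named genes in the 4 groups, 168 sets of 4 or 5 libraries, the highest or lowest library stood far from the others in 13. The cut-off is passed by about 1 in 20 sets of independent, normally distributed values. These counts were not transformed and the sets share libraries, so 13 cannot be read against that rate. In repeat peptide cells with ibrutinib, experiment B was the library that stood apart in 6 of them, all high. It had 17900 normalized counts of Neat1 (others 3284 to 6764), 552.8 of AU020206 (197 to 283), 317.4 of Gm43634 (106 to 159), 121.7 of 2900076A07Rik (50.2 to 66.7), 385.6 of Mirt1 (56.3 to 142) and 138.8 of Gm15675 (23.8 to 57.0). Experiment E, in the same group, had 518.9 of Epb41l4aos (224 to 285) and 59.51 of D930028M14Rik (18.2 to 25.03).

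In repeat peptide cells with DMSO, experiment C had 158.7 normalized counts of Epb41l4aos (others 207 to 213). In single peptide cells with DMSO, experiment D had 502.6 of Gm19585 (209.6 to 251). In single peptide cells with ibrutinib, experiment D had 56350 of Gm42418 (27570 to 32030) and 211.6 of Pvt1 (289 to 299.7), and experiment A had 14.22 of Gm43042 (34.9 to 37.5).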

How the results depend on the processing

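Of 952 values of named genes under the alternatives, 886 kept direction and side of the threshold, 55 lost and 2 gained the call, and 9 changed sign. The latter were, for repeat against single peptide with DMSO, Gm10076 at -0.11 and -0.01 without the repeat library of experiment B or D (-0.11 to 0.20 over the libraries left out), Snhg6 at 0.05 with a length offset and at 0.06 and 0.02 without the repeat library of C or the single library of D (-0.31 to 0.06), and Pvt1 at -0.01 without the repeat library of A or of C and at -0.02 and -0.06 without the single library of C or D (-0.06 to 0.11). None of these was called in any of them. The causes were not tested.

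The number of genes called between the stimulations with DMSO was 79, and 63 to 79 with 1 library left out. Among genes with under 10% of shared sequence, chosen after seeing the data, 45 were called, of fewer genes. With ibrutinib in both it was 65, 48 to 72 with 1 library left out, 39 among genes with under 10% of shared sequence, and 33 beyond a log2 fold change of 1. For ibrutinib in repeat peptide cells it was 15, 5 to 17 with 1 library left out, 7 with only the compared groups, 9 among genes with 2 TPM in each group and 18 by DESeq2. For ibrutinib in single peptide cells it was 1, 0 to 1 with 1 library left out, 0 with a length offset and 2 by DESeq2. For the interaction it was 1, 1 to 3 with 1 library left out, 6 by DESeq2 and 0 among genes with 2 TPM in each group. With the experiment as a block the paired fit called 79, 77, 24, 11 and 9 genes in the order of the 2 comparisons of stimulations, with DMSO and then with ibrutinib, those of ibrutinib in repeat and in single peptide cells, and the interaction. The share of all genes called was not worked out for the paired fit, the other refits or the stricter threshold. These counts therefore cannot be set against the shares of all genes given above. Neighbour pairs called in the same direction numbered 34, 29 within 10 kb, 20 without overlapping pairs and 41 with the block.

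Over the refits of all 123 genes (scalings, filter, groups, block, length offset, DESeq2 and 1 library left out) the median log2 fold change of the lncRNA genes stayed between -0.80 and -0.65 for repeat against single peptide with DMSO (-0.64 among the 92 genes with 2 TPM in each group), and between 0.18 and 0.51 for ibrutinib in repeat peptide cells. The number of libraries per group, 4 or 5, and their spread limit what can be called. Low-count genes such as Gm30214 and D930028M14Rik are limited by depth as well.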

Other observations

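Gm26870, at chr9:3000282-3038313 on the minus strand, was the least even of the genes between libraries. Its normalized counts averaged 484 ± 437 (SD, n = 4) and 1510 ± 1689 (SD, n = 5) in repeat peptide cells without and with ibrutinib, and 84.3 ± 127 (SD, n = 5) and 1650 ± 1951 (SD, n = 4) in single peptide cells. The SD was close to or above the mean in each group, and the log2 fold change with ibrutinib in single peptide cells, 4.30 (SE 1.94), did not pass the test (adjusted p = 0.339 by edgeR's quasi-likelihood test). Of its words of 31 bases, 75.2% occur on the opposite strand of other genes.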
